A study of Sus scrofa with 6 samples.

Results

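Genes that carry iron across membranes, store it or reduce it were examined in porcine blood monocytes that differ in CD163, a receptor that takes up haemoglobin bound to haptoglobin. The members were 10 genes chosen by name (SLC40A1, SLC11A1, SLC11A2, FTL, FTH1, TFRC, HFE, NCOA4, STEAP3 and STEAP4), which are read by 29 of the 47722 probe sets tested and are among 13755 genes with a symbol on the array. CD14low-CD163high monocytes (CD163high) were set against CD14high-CD163low monocytes (CD163low). Both came from the same 3 untreated piglets, Large White Landrace F1 crosses 8 weeks of age, whose blood mononuclear cells had been frozen, thawed, stained and sorted by flow cytometry. With 1 array for each population of a pig there were 6 arrays, 3 per group, and the question was how transcripts differ between the populations. Values are log2 signals and differences are CD163high minus CD163low, and with so few arrays their precision is limited.

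In a macrophage or monocyte, iron bound to transferrin enters through the transferrin receptor TFRC, is reduced in the endosome by the STEAP3 metalloreductase and leaves the endosome through the divalent metal transporter SLC11A2. Iron that is not used is kept in ferritin, a shell built from heavy chains (FTH1), which oxidise iron, and light chains (FTL), which help its core to form, and the cargo receptor NCOA4 brings ferritin to the lysosome for release. Ferroportin, encoded by SLC40A1, is the known exporter of iron from cells. Macrophages that clear red cells and haemoglobin are known for strong export and storage of iron, and inflammation is known to favour its retention.

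One of the 10 genes stood apart in both of its probe sets. STEAP4, a metalloreductase of iron and copper, was 1.99-fold lower in CD163high than in CD163low monocytes by its brightest probe set and 2.79-fold lower by the other. HFE, the MHC class I-like partner of the transferrin receptor, was 1.42-fold higher in CD163high monocytes on a dim probe set. The ferritin chains, ferroportin, the transferrin receptor and both divalent metal transporters had differences whose 95% intervals include 0. None of the 10 genes passed the test over all probe sets in limma, with or without the pig as a block.

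Across the 47722 probe sets limma called 0 at an adjusted p of 0.05 (0% of those tested), and 1235 had an unadjusted p under 0.05 (2.59%). With 1 probe set, the brightest, for each of 13755 genes, 3.27% had an unadjusted p under 0.05, against 2 of the 10 iron genes, STEAP4 and HFE; with the pig as a block these 2 were again under 0.05, against 5.12% of all genes. The populations did not overlap in 2 of the 10 iron genes, again STEAP4 and HFE, and in 6.18% of all genes. The sign was the same in all 3 pigs in 4 of the 10, namely SLC11A1, FTL and HFE, which were higher, and STEAP4, which was lower, and in 22.9% of all genes. The other 6 had differing signs. The median difference of the 10 genes was 0.28, against -0.013 for all genes, with 0.20, 0.43 and -0.0016 in pigs 1, 2 and 3, and was 0.018 without the CD163high array of pig 2.

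Several features of the arrays bear on these values. Averaged over the 69 background controls, the log2 signal ran from 2.82 to 3.67 in CD163high and from 2.60 to 3.29 in CD163low monocytes. All 10 iron genes had a brightest probe set above that mean on each of the 6 arrays, and 7 of the 19 other probe sets were above it as well. The mean is a low bar: the brightest probe sets of SLC11A2, FTH1, HFE and STEAP3 were above the highest background control on 0 arrays. The sort antigens followed the gate in sign: CD163 differed by 2.03 ± 0.43 (SE) and CD14, whose populations overlapped, by -1.07 ± 0.47. The second CD163 probe set differed by 1.06 ± 0.44, with overlap and a difference of -0.056 in pig 3. Limma called neither antigen, so the lack of a call for an iron gene does not show that it is equal in the populations. The 7 measured monocyte markers averaged between 7.59 and 7.75 in CD163high and between 7.32 and 8.02 in CD163low arrays, and all 7 were above the background mean on every array. Most measured markers of T cells, B cells, NK cells and red cell precursors were higher in pig 2 than in the other pigs, and their values stand beside the genes they move with. In sorted bulk samples, fewer cells of a type and less RNA per cell cannot be told apart.

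**Figure D1:**
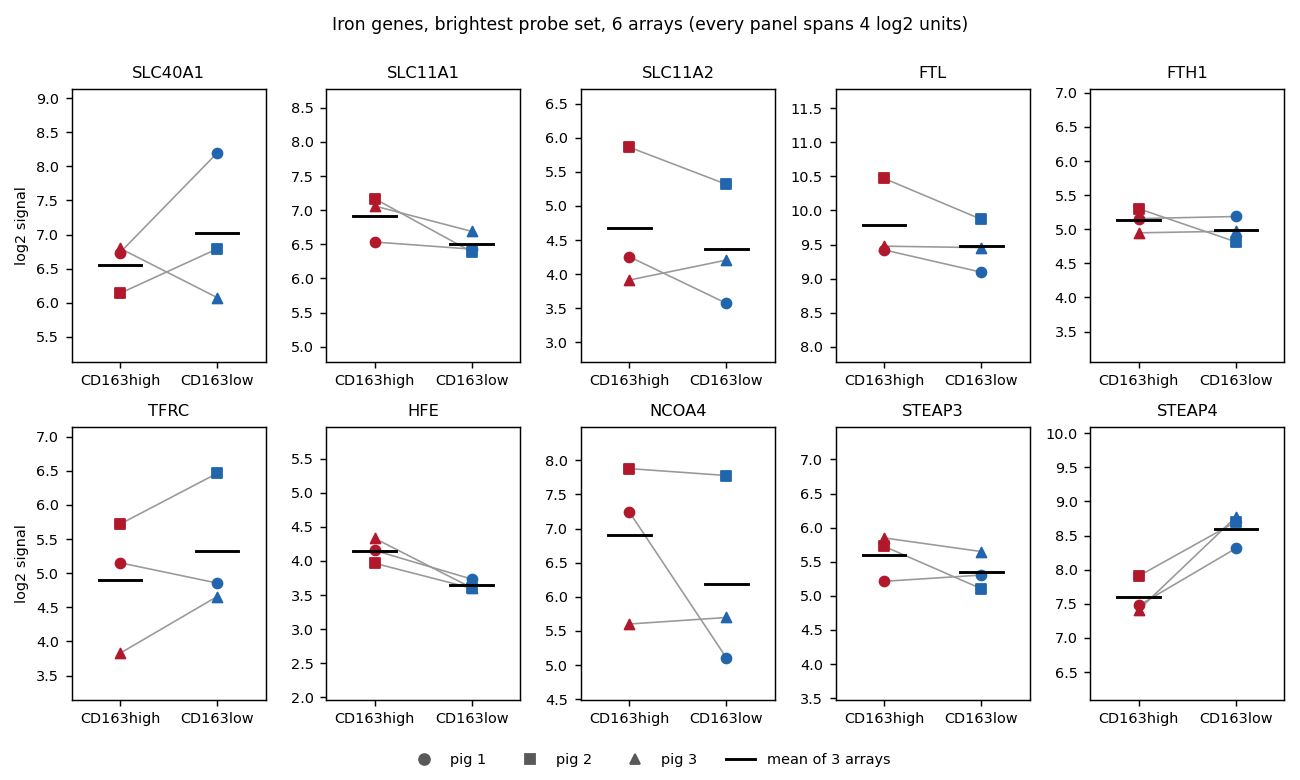
Log2 signal (vertical axis, 4 log2 units in every panel) of the 10 iron genes, each by its brightest probe set, on 6 arrays, CD163high left of CD163low, with a line joining the arrays of a pig and a bar at the mean of 3 arrays. In STEAP4 and HFE the 3 arrays of one population lie on one side of all 3 of the other, and in SLC11A2, FTL, TFRC and NCOA4 pig 2 is the highest of both populations.

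The transcript of the transferrin receptor overlapped between the populations, whereas that of its partner HFE did not. TFRC had log2 signals of 5.15, 5.72 and 3.83 in CD163high monocytes of pigs 1, 2 and 3, against 4.86, 6.46 and 4.66 in CD163low monocytes. The populations overlapped, pig 2 was the highest of each, and pig 1 ran against the other pigs. The difference was -0.43 ± 0.66 (95% interval -2.02 to 1.16). The second TFRC probe set, with a difference of -0.30, had signs as mixed, at 1.04, -1.81 and -0.12 in pigs 1, 2 and 3. HFE binds TFRC and, in the liver, takes part in the sensing of body iron. It had 4.15, 3.97 and 4.33 in CD163high monocytes, against 3.73, 3.60 and 3.61 in CD163low monocytes. All 3 CD163high arrays were above all 3 CD163low arrays, with means of 4.15 ± 0.18 and 3.65 ± 0.076 (SD, n = 3 each). The difference was 0.50 ± 0.17, with 0.42, 0.37 and 0.73 in the 3 pigs and a limma adjusted p of 1. The exact permutation p was 0.1, the smallest that 3 unpaired arrays against 3 allow. That permutation takes the arrays as unpaired although they pair by pig, and so allows more relabellings than the design does. HFE has 1 probe set on this array, so no second one checks it. Its signal was close to background: CD163high of pig 3, at 4.33, had a background mean of 3.67, and CD163low of pig 1, at 3.73, had one of 3.29.

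The transporter and the reductase of the endosome did not differ beyond their spread. SLC11A2 had 4.25, 5.86 and 3.91 in CD163high monocytes, against 3.57, 5.32 and 4.21 in CD163low monocytes. Pig 2 was the highest in each population, by over a log2 unit, and the sign in pig 3 was opposite to that in the others. The difference was 0.31 ± 0.65 (95% interval -1.25 to 1.87), and the 3 other SLC11A2 probe sets had differences between -0.27 and -0.0091. Of those 3, 0 were above the background mean on every array, so they are a weak check. STEAP3 had 5.21, 5.73 and 5.85 in CD163high monocytes, against 5.30, 5.11 and 5.65 in CD163low monocytes. The ranges overlapped, with a difference of 0.24 ± 0.25 (95% interval -0.36 to 0.84), and pig 1, at -0.092, had the opposite sign to the others. The second STEAP3 probe set had a difference of 0.048 and lay below the background mean on 1 array.

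STEAP4 belongs to the same family of metalloreductases and, in other tissues and species, is known as a gene induced by inflammatory cytokines. The brightest STEAP4 probe set had log2 signals of 7.48, 7.91 and 7.41 in CD163high monocytes of pigs 1, 2 and 3, against 8.31, 8.70 and 8.77 in CD163low monocytes. All CD163high arrays were below all CD163low arrays, and means were 7.60 ± 0.27 and 8.59 ± 0.25 (SD, n = 3 each). The difference was -0.996 ± 0.22, with a 95% interval of -1.53 to -0.46 and -0.84, -0.79 and -1.36 in the 3 pigs. Its limma adjusted p was 1 and its exact permutation p 0.1, again with the arrays taken as unpaired. The second probe set had 6.65, 7.41 and 6.67 in CD163high monocytes, against 8.47, 8.10 and 8.59 in CD163low monocytes. These values too were apart, with pig 2 showing the smallest gap. The difference was -1.48 ± 0.27 (95% interval -2.14 to -0.82), with -1.82, -0.70 and -1.92 in the 3 pigs, a limma adjusted p of 1 and the same exact permutation p. Because both probe sets read the same 6 RNA samples, the second checks the probes and not the animals. The brightest probe set kept its sign in all 18 alternatives that read it alone, between -1.15 and -0.81, and the lowest adjusted p among them was 0.174, with array weights.

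The mean of 6 neutrophil markers was lower in CD163high monocytes, as STEAP4 was, and CXCR2 contributed most to that gap. The 6 measured of 10 listed had mean log2 signals between 5.24 and 5.73 in CD163high arrays, against 5.80 to 6.51 in CD163low arrays. None was called, and 2 were lower at an unadjusted limma p under 0.05. CXCR2, a chemokine receptor, had a difference of -2.66 ± 0.41, and S100A12, a calcium-binding alarmin that monocytes also express, -0.95 ± 0.21. CSF3R, a cytokine receptor that is also on the monocyte list, had -1.09. Its populations overlapped, with 9.70 in CD163high of pig 3 and 9.01 in CD163low of pig 2. The 3 granule genes differed by less than their spread: LTF (0.10) was under the background mean on all 6 arrays, MPO (-0.097) was under it on 4, and MMP9 (-0.093) was above it on all 6.

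The platelet, B cell and NK cell lists also had lower means in CD163high cells of each pig, whereas the T cell and dendritic cell lists had mixed signs. The 5 measured platelet markers averaged 4.15 to 4.32 in CD163high arrays, against 4.53 to 4.64 in CD163low arrays, without overlap, and 2 of the 5 were above the background mean on every array. The B cell mean ran from 5.53 to 7.03 in CD163high and from 5.99 to 7.39 in CD163low arrays, and the NK cell mean from 5.52 to 6.66 in CD163high and from 5.87 to 6.82 in CD163low arrays, both lower in CD163high cells of each pig. The T cell mean was higher in CD163high cells of pig 2 (7.89 against 7.80) and lower in those of the other pigs. The dendritic cell mean had the same signs, with 4.45 against 4.24 in pig 2. Within the lists, BANK1, a B cell marker, was higher in CD163high cells of each pig, with a difference of 0.74. GP9, a platelet marker above the background mean on every array, had 0.062. Limma called 0 markers of any of these lists. The part of RNA from neutrophils, platelets or lymphocytes in the STEAP4 difference was not tested.

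**Figure D2:**
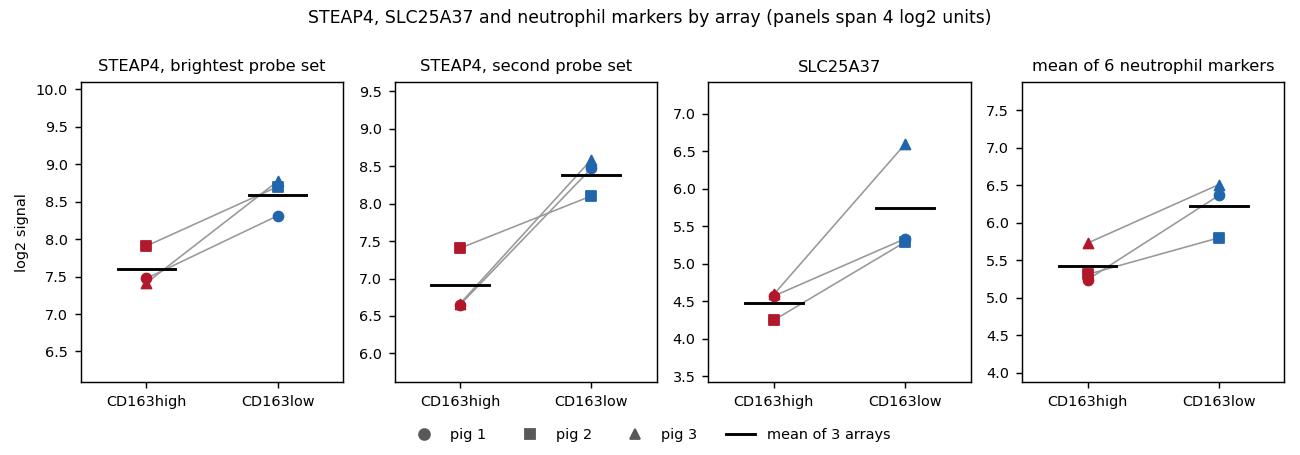
Log2 signal (vertical axis, 4 log2 units in every panel) on 6 arrays for both STEAP4 probe sets, SLC25A37 and the mean of 6 neutrophil markers, CD163high left of CD163low, with lines joining the arrays of a pig and bars at the means. In all 4 panels the 3 CD163high arrays lie below the 3 CD163low arrays. Of the 6 neutrophil markers CXCR2 had the largest difference.

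**Figure D3:**
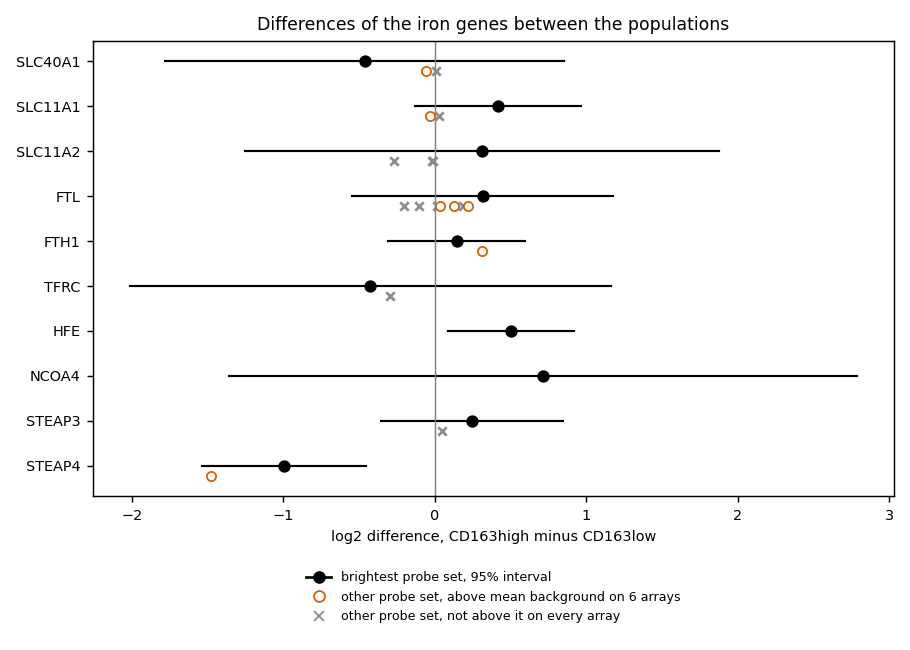
Log2 difference, CD163high minus CD163low (horizontal axis), of the 10 iron genes, with filled points and 95% intervals of the limma fit for the brightest probe set, open circles for other probe sets above the mean background on 6 arrays and crosses for the rest. The intervals of STEAP4 and HFE lie to one side of 0 before adjustment over all probe sets, and the other STEAP4 probe set lies at -1.48.

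By their brightest probe sets the ferritin chains did not separate the populations. FTL had log2 signals of 9.42, 10.47 and 9.48 in CD163high monocytes of pigs 1, 2 and 3, against 9.10, 9.87 and 9.46 in CD163low monocytes. Each pig had the higher value in CD163high cells, by 0.33, 0.60 and 0.022, but the populations overlapped. The difference was 0.32 ± 0.36 (95% interval -0.55 to 1.18), so an increase of up to 1.18 or a decrease of up to 0.55 on the log2 scale lay inside the interval. The array annotation gives FTL to 9 probe sets. The 8 others had differences between -0.20 and 0.22, of which 6 were positive, and 3 of the 8 lay above the background mean on every array. Ferritin genes have processed copies in mammalian genomes, and which locus each probe set reads was not tested. FTH1 had 5.16, 5.30 and 4.95 in CD163high monocytes, against 5.19, 4.82 and 4.97 in CD163low monocytes. Only pig 2 showed a gap, and the difference was 0.14 ± 0.19 (95% interval -0.31 to 0.60). The second FTH1 probe set had 4.57, 4.27 and 4.41 in CD163high monocytes, against 4.21, 4.14 and 3.95 in CD163low monocytes. It was higher in each pig and the populations did not overlap, with a difference of 0.31 ± 0.17 and a limma adjusted p of 1. Both FTH1 probe sets were dim and lay below the highest background control on every array.

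NCOA4, the receptor that takes ferritin to the lysosome, had the widest interval of the 10 genes. Its log2 signals were 7.24, 7.88 and 5.60 in CD163high monocytes, against 5.10, 7.78 and 5.70 in CD163low monocytes. Pig 1 alone had a large gap, of 2.14, whereas pigs 2 and 3 differed by 0.10 and -0.095. The difference was 0.71 ± 0.86 (95% interval -1.36 to 2.79), and 0.0028 without pig 1. The 2 lowest NCOA4 signals came from CD163low of pig 1 and CD163high of pig 3, which also had the highest background means (3.29 and 3.67). Without these 2 arrays the difference was 0.82 ± 0.77, and with the background mean as a covariate it was 1.21 ± 0.37, with an adjusted limma p above the threshold in both. The part of array background in the NCOA4 values was not tested further.

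The difference in the ferroportin transcript was not resolved. The brightest SLC40A1 probe set had log2 signals of 6.74, 6.14 and 6.80 in CD163high monocytes, against 8.20, 6.79 and 6.08 in CD163low monocytes. Pig 3 ran against pigs 1 and 2, and the highest value, in CD163low of pig 1, stood alone. The difference was -0.46 ± 0.54 (95% interval -1.78 to 0.86), and 0.12 without that array. The second probe set had 4.96, 7.36 and 4.20 in CD163high monocytes, against 4.39, 7.24 and 5.07 in CD163low monocytes. Its difference was -0.061 ± 1.04 and that of the third 0.010 ± 0.73. The 3 probe sets thus disagreed in which pig was highest. By the brightest it was pig 1 in CD163low but pig 3 in CD163high monocytes (6.80 against 6.74 in pig 1). By both others it was pig 2 in each population.

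SLC11A1, known as NRAMP1, moves divalent metals out of the phagosome of macrophages and limits the growth of bacteria there. It had 6.53, 7.17 and 7.06 in CD163high monocytes, against 6.43, 6.39 and 6.69 in CD163low monocytes. Each pig was higher in CD163high cells, by 0.10, 0.78 and 0.37, and CD163high of pig 1 lay inside the CD163low range. The difference was 0.42 ± 0.23 (95% interval -0.13 to 0.97). The second probe set, at 5.48, 6.48 and 6.07 in CD163high monocytes, against 6.25, 5.65 and 6.23 in CD163low monocytes, had a difference of -0.029 and had a negative sign in pigs 1 and 3. The third lay above the background mean on 1 array only. Of the 8 genes with several probe sets, 4 (FTH1, TFRC, STEAP3 and STEAP4) had the same sign in all of theirs.

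By the brightest probe set, 1 pig lay apart in both populations in 4 of the 10 genes. Both arrays of pig 2 were above all 4 arrays of pigs 1 and 3 for SLC11A2, FTL, TFRC and NCOA4, against 12.3% of all genes, and were below them for 0 of the 10, against 21% of all genes. Both arrays of pig 1 were above the other 4 for 0 of the 10, against 4.57% of all genes, and those of pig 3 for 0 of the 10, against 9.98%. The wider list of iron genes did not share this order: pig 2 was above in 4 of 35 genes (11.4%) and below in 8 (22.9%). The second SLC11A2 probe set had 5.61 and 5.40 in CD163high and CD163low monocytes of pig 2, against 1.83 to 2.90 on the other 4 arrays, where it lay under the background mean. The second SLC40A1 probe set had 7.36 and 7.24 in pig 2, against 4.20 to 5.07 in the others. Other probe sets did not share the order. The second TFRC probe set had 4.86 and 6.66 in pig 2, against 3.58 to 5.20. A dimmer FTL probe set had pig 2 lowest, with 3.40 and 3.51, against 3.94 to 4.76. Over all 29 probe sets of the 10 genes, pig 2 was above in 8 and below in 3. The share over all probe sets of the array was not taken, so these counts show no excess. Of the 29, 9 are given to FTL, and 12 lay below the background mean on some array. With 3 pigs the order of pig 2 is a description, made after the values were seen, and no test was run.

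Red cell genes had the same order. HBB, the beta chain of haemoglobin, had 10.78 and 10.50 in CD163high and CD163low monocytes of pig 2, against 3.42 to 4.64 on the other 4 arrays. ALAS2, the erythroid enzyme that starts haem synthesis, had 8.22 and 8.11 in pig 2, against 2.81 to 3.51. AHSP, a chaperone of the haemoglobin alpha chain, had 5.91 and 5.75 in pig 2, against 2.41 to 2.98. Of the 7 measured erythroid markers, 5 were higher on both arrays of pig 2 than on all the others, and the mean of the 7 ran from 3.36 to 6.03 in CD163high and from 3.54 to 5.80 in CD163low arrays, with 0 called between the populations. HBB differed by 0.28 ± 2.54 between CD163high and CD163low, or ± 0.18 with the pig as a block, with 0.13, 0.27 and 0.43 in the 3 pigs. Both sorted fractions of pig 2 held HBB RNA. The labels' protocols state that red cells were lysed before freezing. All 5 measured T cell markers, 3 of 5 B cell markers and 4 of 6 NK cell markers had the same order. CD3D, a chain of the T cell receptor complex, had 7.91 and 7.37 in pig 2, against 3.12 to 5.54, and KLRK1, a receptor of NK cells, had 5.80 and 7.35, against 3.02 to 3.85. SPI1, a transcription factor of myeloid cells, ran the other way, with 6.61 and 6.00 in pig 2, against 7.65 to 9.61, whereas LYZ, the monocyte product lysozyme, had 11.20 and 11.07 in pig 2, against 8.86 to 11.05. TFRC, SLC11A2, NCOA4 and ferritin are genes that red cell precursors are known to use. SLC25A37, a mitochondrial iron carrier of the wider list, did not have this order, with 4.25 and 5.29 in pig 2, against 4.57 to 6.60. The part of red cell or lymphocyte RNA in the level of TFRC, SLC11A2, NCOA4 and ferritin in pig 2 was not tested. Without pig 2, STEAP4 had a difference of -1.10 ± 0.27 and HFE of 0.57 ± 0.23.

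**Figure D4:**
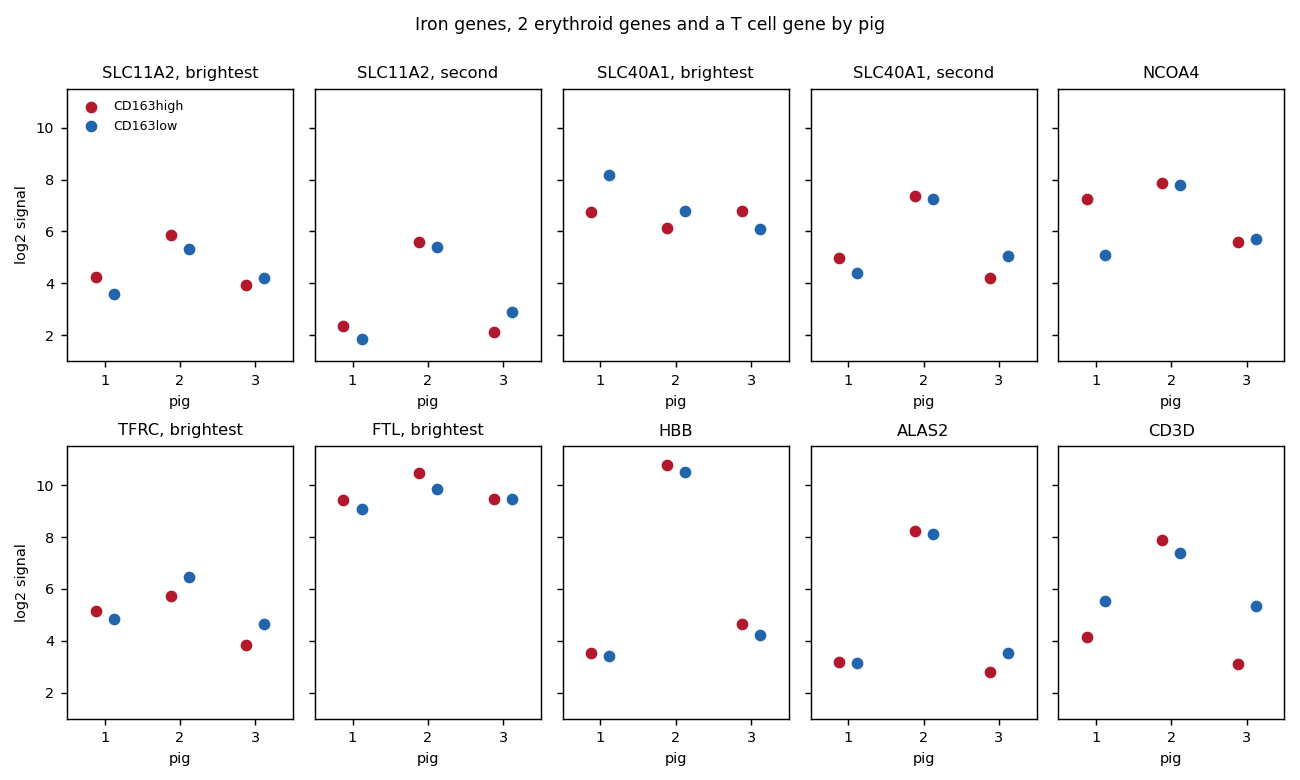
Log2 signal (vertical axis) by pig (horizontal axis) in CD163high (red, left) and CD163low (blue, right) monocytes for probe sets of 5 iron genes, the erythroid genes HBB and ALAS2 and the T cell gene CD3D. Both arrays of pig 2 lie above the other 4 in every panel except the brightest SLC40A1 probe set, where CD163low of pig 1 is highest at 8.20.

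Among other genes of iron handling none passed the test. Of 41 genes listed, 35 were measured, 18 with a positive and 17 with a negative difference, and their median difference was 0.020. Limma called 0 of the 35, and 2, SLC25A37 and SLC39A8, had an unadjusted p under 0.05, against 3.27% of all genes. With the pig as a block the 2 were SLC25A37 and LCN2, and SLC39A8 was not among them, against 5.12% of all genes. SLC25A37, known as mitoferrin and a carrier of iron into mitochondria, had 4.57, 4.25 and 4.59 in CD163high monocytes, against 5.33, 5.29 and 6.60 in CD163low monocytes. The populations were apart, with a difference of -1.27 ± 0.38 (limma adjusted p = 1), and -0.84 without CD163low of pig 3.

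SLC39A8, a zinc, manganese and iron importer, had 6.39, 6.30 and 5.33 in CD163high monocytes, against 3.89, 4.49 and 5.66 in CD163low monocytes. Pig 3 ran the other way and the difference was 1.33 ± 0.52 (limma adjusted p = 1), and 0.75 without pig 1 and 2.16 without pig 3. LCN2, which binds bacterial siderophores and is also a neutrophil granule gene, had 3.22, 3.95 and 4.11 in CD163high monocytes, against 3.75, 4.80 and 4.89 in CD163low monocytes. It was lower in each pig, with overlap between the populations, and the difference was -0.72 ± 0.39, or ± 0.18 with the pig as a block. CYBRD1, a ferric reductase that uses ascorbate, had 8.80, 8.28 and 8.03 in CD163high monocytes, against 6.86, 8.23 and 8.00 in CD163low monocytes. Pig 1 carried the difference of 0.67 ± 0.41, and it was 0.038 without pig 1. The iron regulatory proteins ACO1 and IREB2, which bind the messages of ferritin and TFRC, had differences of 0.48 ± 0.79 and 0.36 ± 0.61. Hepcidin (HAMP), the hormone that closes ferroportin, had -0.22 ± 0.35, and the ferroxidase CP had -0.22 ± 0.23. Transferrin (TF), STEAP2, SLC39A14 and LTF lay under the background mean on all 6 arrays.

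**Figure D5:**
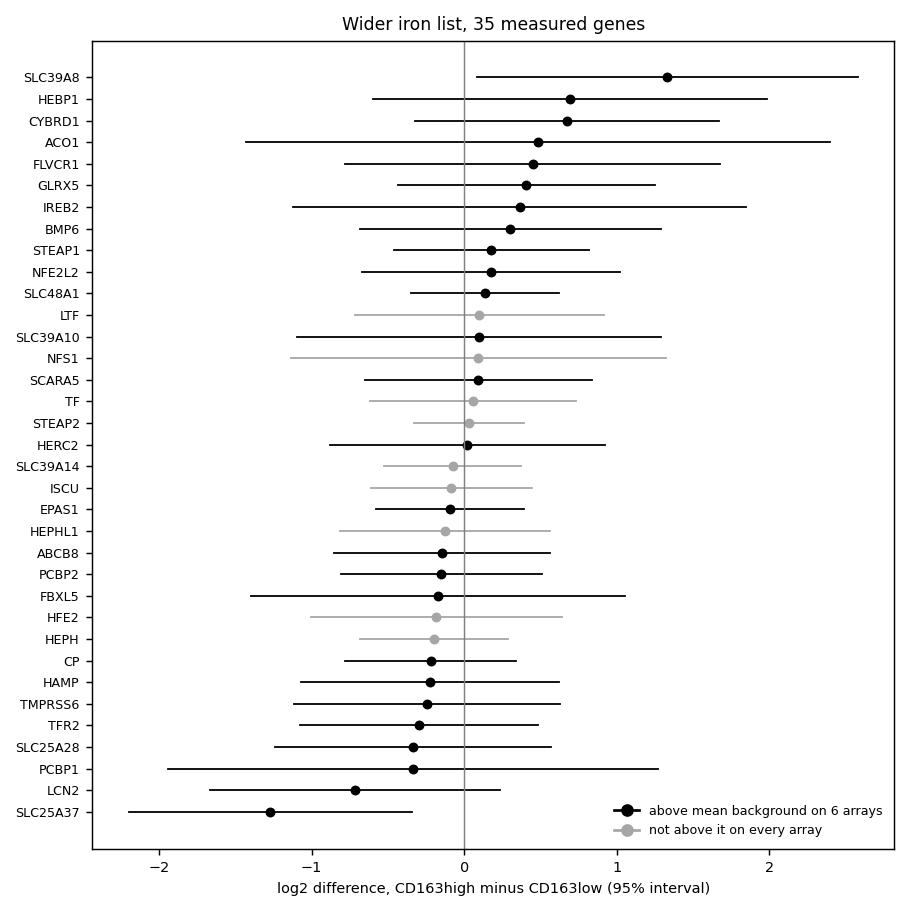
Log2 difference, CD163high minus CD163low (horizontal axis), with the 95% interval of the limma fit, of the 35 measured genes of the wider iron list, in grey where the signal was not above the mean background on every array. SLC39A8 (1.33) and SLC25A37 (-1.27) lie at the ends of the list, and 33 of the intervals include 0.

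The genes whose profile over the 6 arrays was nearest to STEAP4, by the root mean square difference of profiles centred on their own means, were TSPYL2 (0.13 log2 units), PHF12 (0.15) and BDH1 (0.17), where STEAP4 itself spanned 1.36. The nearest to HFE were ATP10A (0.061), LOC100511157 (0.069) and SPAG7 (0.075), where HFE spanned 0.73. Both sets were picked from 13755 genes over 6 arrays that share pigs, so some near profiles are found whatever the gene.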

How the data were processed

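For each of 6 arrays 500 ng of RNA gave cDNA, of which 5.5 µg was labelled, per the labels' protocols. The deposited table holds intensity values per probe set; the submitters' processing notes name RMA and limma with no versions, and the sources used here name no genome build. The first 186 rows of the deposited values were on the log2 scale and 47659 were antilogs (log2 a multiple of 0.0001), and log2 was taken of those. RMA compresses differences of dim probe sets. Array controls (123) were not tested. Symbols came from the array's annotation (26426 probe sets with 1 symbol, 21296 with none), and all 10 members were found in RefSeq (Sscrofa11.1).

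Limma (version 3.58.1, R 4.3.3) compared CD163high with CD163low over 47722 probe sets, two-sided, without a block, with Benjamini-Hochberg adjustment at 0.05; a gene was read by its brightest probe set over 6 arrays. Arrays pair by animal through their descriptions, and a pig's arrays had deviations from the group means that correlated at -0.20, 0.67 and 0.26. Replicates within a group are separate animals, but each animal gave an array to both groups. Without a block, SE, intervals and p-values therefore include the level differences between pigs as well as the spread of the within-pig difference. With the pig as a block the SE fell from 0.65 to 0.26 for SLC11A2, from 0.66 to 0.29 for TFRC and from 0.36 to 0.20 for FTL. It rose from 0.17 to 0.18 for HFE and from 0.19 to 0.20 for FTH1. Functions were tested on simulated data. The members, lists and tests were chosen with earlier results of these data known. Named were the members, the 4 wider iron genes with the smallest p, the sort antigens and the 3 nearest profiles of the member with the smallest p in each direction; ACO1, IREB2, HAMP, CP, TF, STEAP2, SLC39A14, HBB, ALAS2, AHSP, CD3D, CXCR2, KLRK1, SPI1, LYZ, S100A12, CSF3R, MMP9, LTF and MPO were named after their values were seen. Alternatives were a fixed and a random block for the pig, a trended robust variance, weights for arrays, quantile normalization, median centring, removal of the dimmest share of 0.3333, the mean of all probe sets, background as a covariate, and leaving out the pair of arrays with most background, each pig and each array; those of the second STEAP4 probe set were added after the data were seen.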

Additional observations from a re-analysis of the deposited data

How the results depend on the processing

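Limma called 0 probe sets and 0 iron genes under every alternative run. Against 1235 as reported, the probe sets at an unadjusted p under 0.05 numbered 1917 with the pig as a replicate block, 1875 with a random block, 8884 with array weights, 785 without the dimmest 0.3333 of probe sets, 4719 with background as a covariate, and 772 to 2400 on omission of single pigs or arrays. The block changed no call. STEAP4 (both probe sets), HFE, SLC11A1 and NCOA4 kept their sign under all of these, and NCOA4 ran from 0.0028 to 1.51. The unadjusted limma p was under 0.05 in 19 of 19 alternatives for STEAP4 but in only 9 of 19 for HFE. For HFE it was 0.096, 0.060 and 0.17 without pigs 1, 2 and 3. On omission of single pigs or arrays the median of the 10 genes ran from 0.018 to 0.47, SLC40A1 from -1.05 to 0.12, TFRC from -0.84 to 0.14, SLC11A2 from -0.28 to 0.79, FTL from -0.024 to 0.51 and FTH1 from -0.028 to 0.24; the median was 0.10 with the mean of all probe sets. Signs turned in 12 cases. SLC40A1 was 0.27 with array weights, 0.0043 without the 2 arrays of highest background, 0.035 without pig 1 and 0.12 without its CD163low array. TFRC was 0.36 with array weights, 0.11 without CD163high of pig 3 and 0.14 without CD163low of pig 2. SLC11A2 was -0.28 without CD163high of pig 2 and -0.085 without CD163low of pig 1, FTL -0.024 without CD163high of pig 2, FTH1 -0.028 without pig 2 and STEAP3 -0.15 with array weights. The cause was not tested.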
